A study of Mus musculus with 6 samples.

Results

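A set of 9 genes of T cell co-stimulation and checkpoint control was taken by symbol from a table of 54532 genes: *Cd80*, *Cd86*, *Icosl*, *Cd40*, *Cd83*, *Cd274*, *Pdcd1lg2*, *Lgals9* and *Havcr2*. Each symbol matched 1 row, and all 9 were among the 11689 genes tested. The libraries came from primary mouse macrophages of 2 genotypes, METRNL+/+ (WT) and METRNL-/- (labelled METRNL KO, here KO), with 3 libraries each. *Metrnl* encodes the secreted protein meteorin-like. Cells of both genotypes had been exposed to the fungus *Candida albicans* for 6 h in vitro, and no unexposed cells were analysed here. The labels give no tissue of origin, strain, age or design of the deleted allele, and they do not tie replicates to animals or cultures. The p-values therefore speak of the variation among 6 libraries, part of which may be technical.

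T cells need a signal beside antigen before they respond, and antigen-presenting cells give it through surface proteins of the B7 family. CD80 and CD86 bind CD28 to activate T cells and bind CTLA-4, which restrains them, while ICOSL binds ICOS. PD-L1 (gene *Cd274*) and PD-L2 (*Pdcd1lg2*) bind PD-1 on T cells and dampen them. CD40 receives T cell help through CD40 ligand, and CD83 holds CD86 and MHC class II at the cell surface. Galectin-9 (*Lgals9*) is a described ligand of TIM-3 (*Havcr2*), an inhibitory receptor found on T cells and on myeloid cells. Macrophages raise many of these genes when they sense microbes.

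*Cd274* and *Pdcd1lg2* are neighbours on the plus strand of chromosome 19, at 29367455 to 29388095 and 29410919 to 29471157 (GRCm38), with 22823 bases between them. Their upstream sequences are shown because the pair differed in the comparison below. RefSeq (GRCm38.p6) gave a promoter for 6 of the 9 genes, and the windows below are the 250 bases before the start site, at chr19:29367188-29367437 for *Cd274* and chr19:29410669-29410918 for *Pdcd1lg2*, both 5′ to 3′ on the plus strand. Capitals mark a match to the NF-kappaB consensus.
Cd274: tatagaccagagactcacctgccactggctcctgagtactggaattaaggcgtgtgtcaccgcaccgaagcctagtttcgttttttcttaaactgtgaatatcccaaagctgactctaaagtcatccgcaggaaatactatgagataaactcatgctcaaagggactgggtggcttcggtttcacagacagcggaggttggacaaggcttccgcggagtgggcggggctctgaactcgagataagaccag
Pdcd1lg2: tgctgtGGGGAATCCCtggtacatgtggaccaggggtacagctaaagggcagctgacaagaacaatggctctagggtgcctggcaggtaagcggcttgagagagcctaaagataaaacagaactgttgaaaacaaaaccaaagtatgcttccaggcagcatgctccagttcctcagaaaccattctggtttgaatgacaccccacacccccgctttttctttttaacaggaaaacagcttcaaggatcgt
The NF-kappaB match in *Pdcd1lg2*, GGGGAATCCC, lies 244 to 235 bases before the start site and reads as a match on both strands. No stretch of the *Cd274* window matched. Searched on both strands, 7.25% of 32851 promoter windows of the same length held an NF-kappaB match. An interferon regulatory factor motif, GAAA followed by any 2 bases and a further GAAA, was held by 2.98% of windows, and among the 6 genes by *Lgals9* (TTTCTTTTTC, a match on the opposite strand, 55 to 46 bases before the start). An interferon-gamma activated site, TTCNNNGAA, was held by 7.02% of windows and by none of the 6. *Icosl* held 1 further NF-kappaB match. These are matches of letters in a short window and do not show that a factor binds there or elsewhere.

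Values are FPKM, fragment counts scaled to gene length and library size, as deposited. The libraries held between 11026529 and 15724897 reads assigned to genes. *Metrnl* RNA was present in all 6 libraries (63.2 to 93.5 FPKM in WT and 51.2 to 63.6 FPKM in KO), and a value per gene cannot show which exons were read, so it does not check the genotype labels. The macrophage label was met by high *Lyz2*, *Cd68* and *Adgre1*, and all 13 macrophage markers passed the filter. Of the 13, 7 were higher, 1 was lower and 5 did not pass. Their summed level was 5027 to 5850 FPKM in WT and 8927 to 9620 FPKM in KO, a sum made up mostly of *Lyz2* (2204 against 4431 FPKM), *Cd14* (1800 against 2674 FPKM, not called) and *Cd68* (842 against 1108 FPKM, not called). *Fcgr1*, which encodes a high-affinity IgG receptor, was the 1 marker called lower, at 4.75 ± 1.06 against 1.24 ± 0.416 FPKM (SD, n = 3 each; limma adjusted p = 0.00419). Summed B cell markers stood at 602 to 779 FPKM in WT and 31.7 to 40.7 FPKM in KO, where all 13 tested of 15 were lower and none of the 15 was at 0 in all libraries. Summed dendritic cell markers stood at 196 to 280 FPKM in WT and 93.8 to 107 FPKM in KO, with 8 of 10 tested lower. The largest falls in FPKM were in *Ccl22* (67.4 against 16.8), *Fscn1* (64.1 against 11.8) and *Ccr7* (60.5 against 13.8). The 2 not called, *Itgax* and *Xcr1*, had every KO library above every WT library. *Itgax* stood at 36.9 to 45.4 FPKM in WT and 49.3 to 50.9 FPKM in KO. *Xcr1* stood at 1.93 to 2.96 FPKM in WT and 3.03 to 3.88 FPKM in KO. Summed T and NK cell markers stood at 12.3 to 14.6 FPKM in WT and 3.41 to 4.59 FPKM in KO, with all 5 tested of 10 lower. *Klrb1c*, listed at 0 in KO, rested on 1, 2 and 0 reads in WT replicates 1 to 3. Summed mast cell and mesothelium markers stood at 17.2 to 20.5 FPKM in WT and 5.36 to 6.68 FPKM in KO, with 6 of 7 tested lower. Summed neutrophil markers stood at 976 to 1302 FPKM in WT and 733 to 843 FPKM in KO, with 2 of 10 tested lower and 0 higher. That sum was mostly *S100a8* (734 against 361 FPKM, called lower) and *S100a9* (297 against 304 FPKM, not called). *Elane*, listed at 0 in WT, rested on 2, 1 and 0 reads in KO replicates 1 to 3. B cells and dendritic cells also carry most of the 9 genes. In bulk RNA, fewer cells of a type and less RNA per cell cannot be told apart. The extraction text in the labels speaks of retinas, and 1 of 12 retinal markers passed the filter.

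*Cd80* was higher and *Pdcd1lg2* was lower in KO, and the other 7 genes did not pass (limma on log2(FPKM + 1), Benjamini-Hochberg adjusted p below 0.05 over all genes tested). Among all genes tested, 15.7% were called higher and 12.4% lower, so 1 of 9 in each direction is near the background and is no result about the set. *Cd80* was also the 1 gene of the 9 whose KO values all lay above the WT values, as for 25.7% of all genes, and *Pdcd1lg2* the 1 whose KO values all lay below, as for 19.9%. The groups of the other 7 genes overlapped. The median log2 fold change, KO minus WT, was -0.18 over the 9 genes and 0.03 over all genes tested. Across all genes, 55.9% of the calls were higher in KO, and 31.8% when values were rescaled to TPM, in which each library has the same total. *Cd80* remained called higher and *Pdcd1lg2* lower in TPM.

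**Figure D1:**
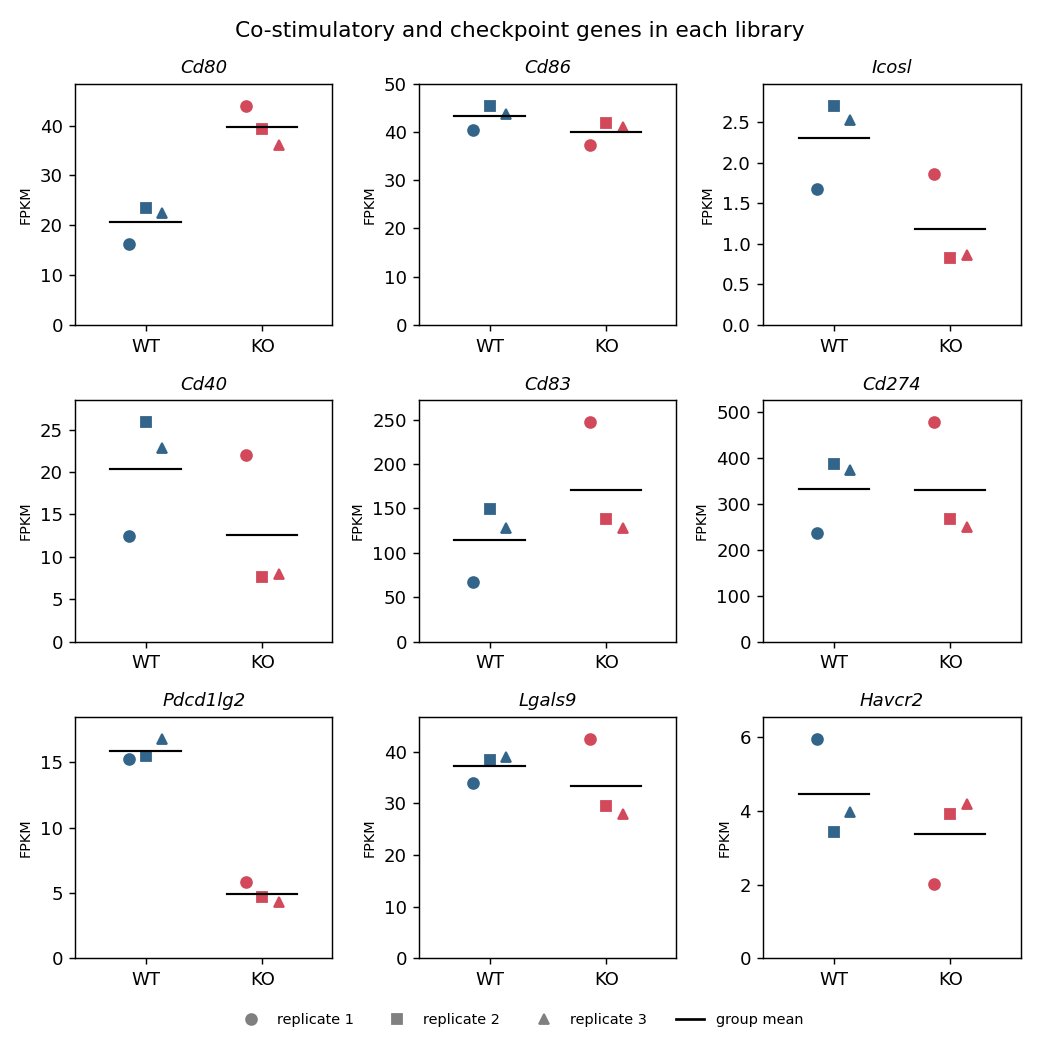
FPKM (vertical axes, from 0) of the 9 genes in the 3 WT and 3 KO libraries, with a marker shape for each replicate number and a line at the group mean. The groups are apart for *Cd80* and *Pdcd1lg2* and overlap for the other 7 genes, and the circle of replicate 1 is often the farthest from its group.

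Among the activating B7 ligands, *Cd80* rose, while *Cd86* and *Icosl* did not pass the test. *Cd80* (ENSMUSG00000075122, chromosome 16, 38455561 to 38496335, plus strand) stood at 16.2, 23.6 and 22.5 FPKM in WT replicates 1 to 3 and at 44.0, 39.4 and 36.0 FPKM in KO replicates 1 to 3. Every KO library lay above every WT library. These values rest on 962 to 1043 reads in WT and 2000 to 2301 reads in KO. The group means (SD, n = 3 each) were 20.8 ± 3.98 and 39.8 ± 4.02 FPKM, and the log2 fold change was 0.92 ± 0.15 (SE; 95% confidence interval 0.55 to 1.29; limma adjusted p = 0.0079). Of the 13 macrophage markers 7 were also higher in KO and 1 was lower, as given above, and their part in the *Cd80* result was not tested.

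*Cd86* (ENSMUSG00000022901, chromosome 16, 36603869 to 36666081, minus strand) stood at 40.5, 45.5 and 43.8 FPKM in WT and at 37.3, 41.9 and 41.0 FPKM in KO, with overlapping groups. KO differed from WT by -0.11 ± 0.08 (SE) on the log2 scale, with a 95% confidence interval from -0.29 to 0.08 (limma adjusted p = 0.353), which leaves out a 2-fold change in either direction on the log2(FPKM + 1) scale. *Cd80* and *Cd86* lie on the same chromosome with 1789479 bases between them.

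The ratio of *Cd80* to *Cd86* within a library does not depend on the library's scaling. It was 0.400, 0.518 and 0.514 in WT replicates 1 to 3 and 1.18, 0.938 and 0.878 in KO replicates 1 to 3. *Cd86* was therefore the more abundant of the pair in every WT library, and the pair were at like levels in the KO libraries. The mean log2 ratio with 1 FPKM added rose by 1.03 between the groups, which did not overlap. The exact two-sided permutation p was 0.1, the smallest that 3 against 3 libraries can give, and it was 0.1 after adjustment over the 3 ratios computed.

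*Icosl* (ENSMUSG00000000732, chromosome 10, 78069302 to 78083913, plus strand), the ligand of ICOS, had the lowest level of the 9 genes. Its values were 1.67, 2.70 and 2.52 FPKM in WT and 1.86, 0.823 and 0.867 FPKM in KO, resting on 124 to 147 and 60 to 110 reads. KO replicates 2 and 3 lay below all WT libraries, while KO replicate 1 lay above WT replicate 1. Its log2 fold change was -0.61 ± 0.21 (SE; limma adjusted p = 0.0796), and without KO replicate 1 it was -0.83 and passed (limma adjusted p = 0.0218). *Icosl* also passed in TPM (limma adjusted p = 0.0402) and with voom on recovered reads (adjusted p = 0.0448, limma).

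**Figure D2:**
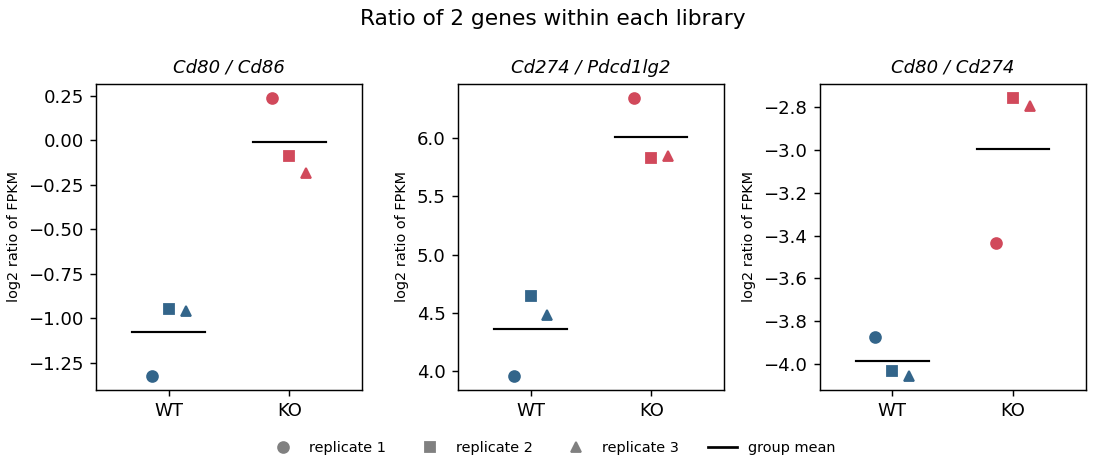
Log2 ratio of FPKM, with nothing added, of 2 genes within each library, for *Cd80* over *Cd86*, *Cd274* over *Pdcd1lg2* and *Cd80* over *Cd274*, with a marker shape for each replicate number and a line at the group mean. All 3 KO libraries lie above all 3 WT libraries in each panel, and the vertical axes do not start at 0.

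Of the PD-1 ligands, *Pdcd1lg2* fell and *Cd274* did not pass. *Pdcd1lg2* (ENSMUSG00000016498, plus strand), which encodes PD-L2, stood at 15.2, 15.4 and 16.8 FPKM in WT replicates 1 to 3 and at 5.84, 4.66 and 4.34 FPKM in KO replicates 1 to 3. Every KO library lay below every WT library, and the WT libraries lay close together. These values rest on 299 to 402 reads in WT and 107 to 123 reads in KO. The mean was 3.20-fold lower in KO, at 15.8 ± 0.823 against 4.95 ± 0.793 FPKM (SD, n = 3 each), and the log2 fold change was -1.51 ± 0.11 (SE; 95% confidence interval -1.76 to -1.25; limma adjusted p = 4.06e-04). PD-L2 is known on dendritic cells, on macrophages and on a subset of B cells. Summed markers of B cells, of dendritic cells, of T and NK cells, and of mast cells and mesothelium were lower in KO as given above. So were the neutrophil sum, mostly through *S100a8*, and the macrophage marker *Fcgr1*. The part of all these in the *Pdcd1lg2* result was not tested.

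*Cd274* (ENSMUSG00000016496, plus strand), which encodes PD-L1, was the most abundant of the 9 genes per length. It stood at 237, 386 and 374 FPKM in WT replicates 1 to 3 and at 477, 266 and 249 FPKM in KO replicates 1 to 3. The highest and the second lowest of the 6 values were both KO, and the lowest was WT replicate 1. The group means (SD, n = 3 each) were 332 ± 82.6 FPKM for WT and 331 ± 127 FPKM for KO. Its log2 fold change was -0.04 ± 0.30 (SE; limma adjusted p = 0.938), and its 95% confidence interval, -0.77 to 0.69, holds changes of some size in both directions. With both replicate 1 libraries left out, *Cd274* was lower in KO (log2 fold change -0.56, limma adjusted p = 0.00495).

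The ratio of *Cd274* to *Pdcd1lg2* was 15.6, 25.0 and 22.3 in WT replicates 1 to 3 and 81.6, 57.0 and 57.5 in KO replicates 1 to 3. The lowest KO ratio was above the highest WT ratio. The mean log2 ratio with 1 FPKM added rose by 1.47 (exact two-sided permutation p = 0.1, the smallest possible; 0.1 adjusted over 3 ratios). The ratio of *Cd80* to *Cd274* rose by 0.96 on the same scale, also with groups that did not overlap (exact two-sided permutation p = 0.1; 0.1 adjusted). Of the 11 tested genes within 300000 bases of the *Cd274* and *Pdcd1lg2* pair, these 2 included, *Pdcd1lg2* was the 1 gene called. *Jak2*, the kinase gene 116 kb before the start of *Cd274*, had a log2 fold change of -0.29 (limma adjusted p = 0.720). Its replicate 1 libraries stood apart in opposite directions, as for *Cd274*. It stood at 33.3, 83.7 and 79.3 FPKM in WT replicates 1 to 3 and at 102, 34.8 and 33.3 FPKM in KO replicates 1 to 3. *Plgrkt*, the next tested gene before *Cd274*, had a log2 fold change of 0.08 (limma adjusted p = 0.547).

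*Cd40* and *Cd83* did not pass, and the replicate 1 libraries stood far from the others in both. *Cd40* (ENSMUSG00000017652, chromosome 2, 165055627 to 165072948, plus strand), the receptor for T cell help, stood at 12.4, 25.9 and 22.8 FPKM in WT replicates 1 to 3 and at 22.0, 7.68 and 8.03 FPKM in KO replicates 1 to 3. WT replicate 1 was the lowest WT library and KO replicate 1 lay just below WT replicate 3. The log2 fold change was -0.75 ± 0.44 (SE; limma adjusted p = 0.256). Without KO replicate 1 it was -1.21 and passed (limma adjusted p = 0.0407), and with both replicate 1 libraries left out it was -1.51, from a mean of 24.3 to 7.86 FPKM (limma adjusted p = 0.00111).

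*Cd83* (ENSMUSG00000015396, chromosome 13, 43784775 to 43803132, plus strand), whose protein holds CD86 and MHC class II at the surface, stood at 67.6, 149 and 128 FPKM in WT replicates 1 to 3 and at 247, 138 and 128 FPKM in KO replicates 1 to 3. KO replicates 2 and 3 lay within the WT range, and KO replicate 1 lay above all others. The log2 fold change was 0.58 ± 0.37 (SE; 95% confidence interval -0.30 to 1.47; limma adjusted p = 0.285). With both replicate 1 libraries left out it was -0.05 (limma adjusted p = 0.699).

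*Lgals9* and its receptor gene *Havcr2* did not pass. *Lgals9* (ENSMUSG00000001123, chromosome 11, 78962974 to 78984946, minus strand), encoding galectin-9, stood at 34.0, 38.5 and 39.0 FPKM in WT and at 42.4, 29.5 and 27.9 FPKM in KO. In FPKM as deposited, KO replicate 1 was above all WT libraries and KO replicates 2 and 3 were below all of them. The log2 fold change was -0.18 ± 0.16 (SE; limma adjusted p = 0.464), and -0.36 without KO replicate 1 (limma adjusted p = 0.0349). In TPM it was -0.26 (limma adjusted p = 0.1675). *Havcr2* (ENSMUSG00000020399, chromosome 11, 46454935 to 46481255, plus strand), encoding TIM-3, stood at 5.94, 3.43 and 3.96 FPKM in WT and at 2.01, 3.91 and 4.19 FPKM in KO. Its highest value was WT replicate 1 and its lowest KO replicate 1, with the other 4 libraries between 3.43 and 4.19 FPKM. Its log2 fold change was -0.33 ± 0.26 (SE; limma adjusted p = 0.386), and 0.11 with both replicate 1 libraries left out (limma adjusted p = 0.431).

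In FPKM as deposited, the replicate 1 libraries thus stood apart in opposite directions within the groups for most of the 9 genes. In 7 of the 9 genes, all but *Cd86* and *Havcr2*, KO replicate 1 was the highest KO library and WT replicate 1 the lowest WT library, an arrangement found in 21.9% of all genes tested. *Havcr2* showed the reverse arrangement, found in 22.2% of all genes. FPKM summed over all genes was arranged as in the 7 genes, at 311409, 340226 and 365689 in WT replicates 1 to 3. In KO replicates 1 to 3 the sums were 412048, 335015 and 334570. The arrangement was counted without rescaling to equal sums, and the part of the sums in it was not tested. For *Cd40*, KO replicate 1 stood at 2.80 times the mean of KO replicates 2 and 3, and WT replicate 1 at 0.511 times the mean of WT replicates 2 and 3. The same 2 ratios were 1.86 and 0.489 for *Cd83* and 1.85 and 0.625 for *Cd274*. For *Icosl* they were 2.20 and 0.640, and for *Havcr2* 0.496 and 1.61. For *Cd86*, whose replicate 1 libraries were the lowest of both groups, they were 0.900 and 0.907. The 9 genes are not independent of each other, and the share they make is a description of these libraries.

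**Figure D3:**
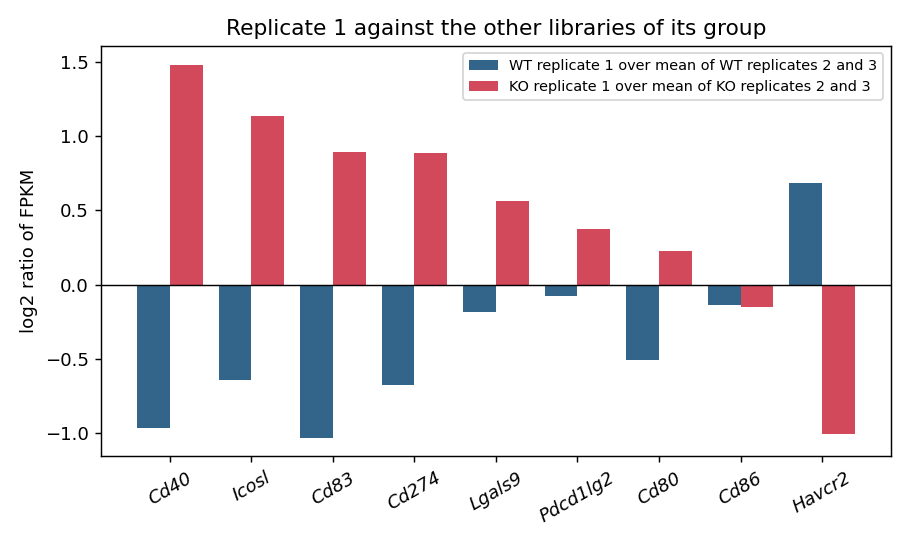
Log2 ratio of FPKM in replicate 1 to the mean of replicates 2 and 3 of the same group (vertical axis), for the 9 genes, with 1 bar for WT and 1 for KO. The KO bar is above 0 and the WT bar below 0 for 7 genes, from *Cd40* to *Cd80*, and the reverse holds for *Havcr2*.

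Comparing replicates 2 and 3 alone gave 1 gene higher and 5 lower in KO, where 19.3% and 16.3% of all genes tested were called (limma, adjusted p below 0.05). The higher gene was *Cd80* (37.7 against 23.0 FPKM). The lower genes were *Pdcd1lg2*, *Cd40*, *Icosl*, *Cd274* and *Lgals9*. In these libraries *Pdcd1lg2* was 3.58-fold, *Cd40* 3.09-fold, *Icosl* 3.09-fold, *Cd274* 1.48-fold and *Lgals9* 1.35-fold lower. The comparison of the replicate 1 libraries with each other went the other way for 4 of these 5, with KO at 1.77 times WT for *Cd40*, 1.11 times for *Icosl*, 2.01 times for *Cd274* and 1.25 times for *Lgals9*, and it was 2.61-fold lower in KO for *Pdcd1lg2*. *Cd80* was 2.72 times WT in KO replicate 1. These ratios are of FPKM as deposited, which summed over all genes to 412048 in KO replicate 1 and 311409 in WT replicate 1. The ratios of *Icosl* and *Lgals9* were below the ratio of these sums, so scaled to equal sums both would be lower in KO replicate 1. Those of *Cd40* and *Cd274* were above it. Leaving out the libraries that stand apart lowers the spread that the test uses.

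**Figure D4:**
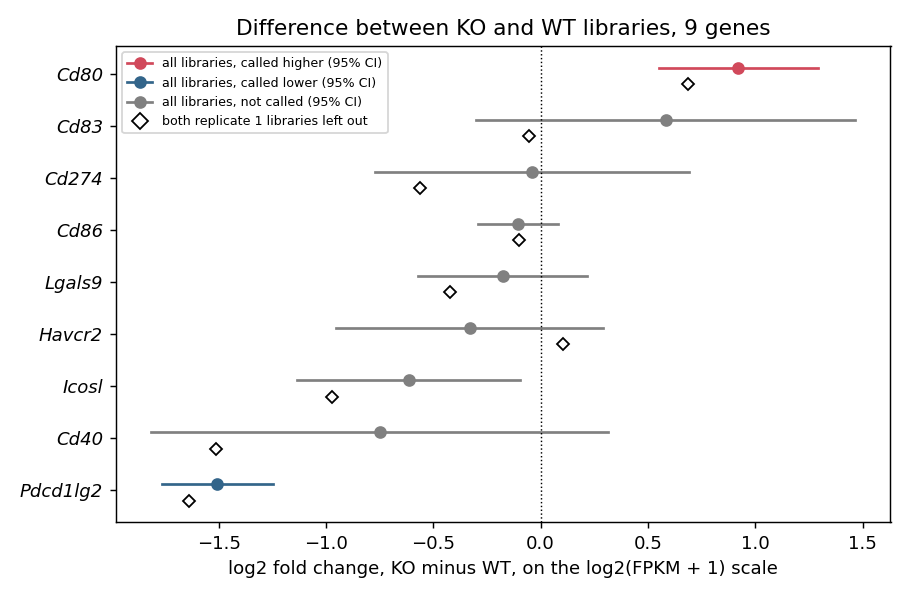
Difference of KO from WT in log2(FPKM + 1) (horizontal axis) for the 9 genes, with the 95% confidence interval from all 6 libraries as a line and the value with both replicate 1 libraries left out as an open diamond. The intervals of *Cd80* and *Pdcd1lg2* lie on opposite sides of 0. The diamonds of *Cd274*, *Cd40* and *Cd83* lie well to the left of their circles, and that of *Havcr2* lies to the right.

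In both groups the level per length fell from *Cd274* through *Cd83* to *Icosl*. In WT the order of mean FPKM was *Cd274*, *Cd83*, *Cd86*, *Lgals9*, *Cd80*, *Cd40*, *Pdcd1lg2*, *Havcr2* and *Icosl*. The ranges of *Cd80* and *Cd40* overlapped, as did those of *Cd40* and *Pdcd1lg2*, and the other neighbours in that order were apart. In KO *Cd80* stood next to *Cd86*, at 39.8 against 40.1 FPKM, and the ranges of *Cd86*, *Cd80* and *Lgals9* overlapped from each to the next. The other neighbours were apart, and *Pdcd1lg2*, at 4.34 to 5.84 FPKM, lay just above *Havcr2*, at 2.01 to 4.19 FPKM.

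Related genes were taken from 9 lists of receptors, ligands and signalling partners. Of 78 such genes tested, 15 were higher and 21 lower in KO, a share of 41.7% higher among those called, and in TPM 4 were higher and 21 lower, a share of 16.0%. Their median log2 fold change was -0.06, and that of all genes tested was 0.03. Among all genes tested 15.7% were called higher and 12.4% lower, which is also the background for the counts of each list below. The share higher among all calls was 55.9%, and 31.8% in TPM. The lists share *Ceacam1* between them and were chosen with earlier results of these data known.

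Of 8 genes for lymphocyte partners of the 9 proteins and for related receptors, 5 were tested, with 3 lower and 0 higher in KO. *Ctla4*, which encodes the inhibitory receptor for CD80 and CD86, stood at 5.51, 9.08 and 6.93 FPKM in WT and 0.570, 0.517 and 0.544 FPKM in KO (limma adjusted p = 3.20e-04). *Btla*, a receptor gene of B and T cells, went from 3.74 ± 1.24 to 0.343 ± 0.103 FPKM (limma adjusted p = 0.00185; mean ± SD of 3 libraries, here and below). *Pdcd1*, which encodes PD-1, went from 1.90 to 0.819 FPKM (limma adjusted p = 0.0197). Summed T and NK cell and B cell markers were lower in the same libraries, as given above, and their part in these results was not tested.

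Other B7-related and checkpoint genes went both ways. Of 9 further B7 and butyrophilin family genes 3 were tested: *Vsir*, which encodes the inhibitory ligand VISTA, rose from 17.7 ± 3.70 to 29.2 ± 5.45 FPKM, while *Vsig4*, a complement receptor gene of resident macrophages, fell from 4.14 ± 1.01 to 1.38 ± 0.249 FPKM, and *Treml2* fell from 0.884 to 0.234 FPKM (limma adjusted p = 0.0385, 0.00517 and 0.0102). Of 12 tested checkpoint genes 4 rose and 3 fell. *Sirpa*, which encodes the myeloid receptor of the CD47 signal, stood at 74.1, 67.9 and 70.5 FPKM in WT and 125, 121 and 123 FPKM in KO (limma adjusted p = 6.94e-04). *Lag3*, a T and NK cell checkpoint gene, fell from 5.21 ± 1.12 to 0.341 ± 0.0579 FPKM and *Tigit* from 1.06 to 0.298 FPKM, and the myeloid inhibitory receptor gene *Lilrb4a* fell from 157 to 118 FPKM (limma adjusted p = 3.20e-04, 0.00786 and 0.0150). Of 5 tested co-stimulatory ligands of the TNF superfamily, *Tnfsf4*, which encodes OX40 ligand, fell from 1.31 to 0.205 FPKM (limma adjusted p = 0.00187) and the other 4 did not pass.

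**Figure D5:**
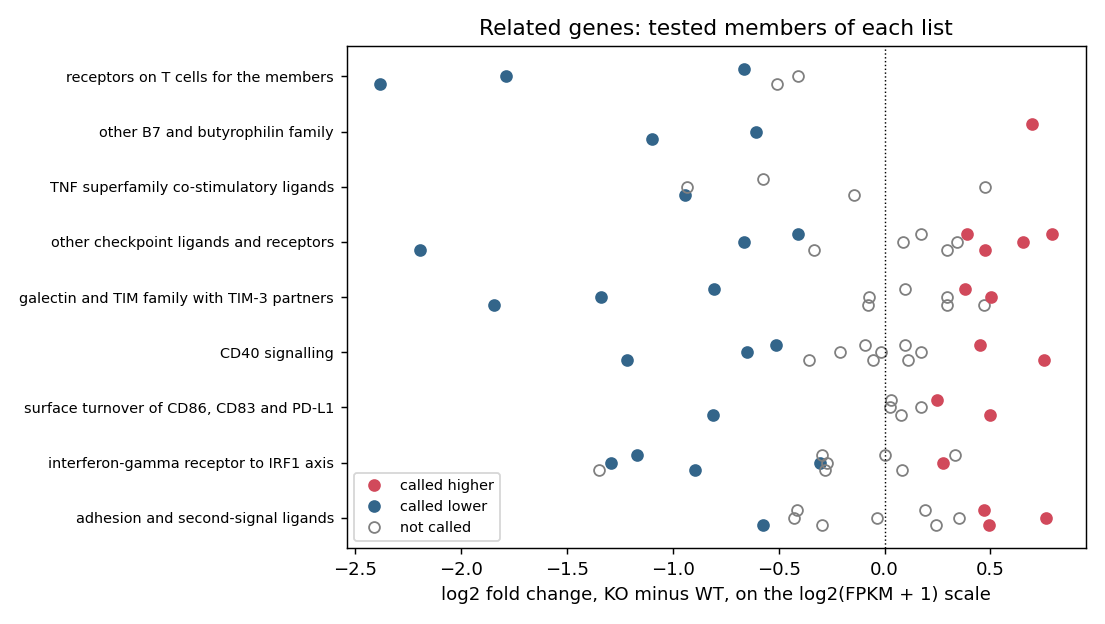
Difference of KO from WT in log2(FPKM + 1) (horizontal axis) of each tested gene in 9 lists of related genes (vertical axis), filled where called and open where not. The lowest values belong to *Ctla4*, *Lag3*, *Timd4* and *Btla*, and genes called in both directions are seen in 7 of the 9 lists.

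Of 11 tested galectin and TIM genes and partners of TIM-3, 2 rose and 3 fell. *Lgals8*, which encodes galectin-8, rose from 19.5 ± 1.26 to 27.9 ± 0.725 FPKM (limma adjusted p = 0.00421). *Timd4*, a receptor gene for dying cells on resident macrophages, fell from 4.71 ± 1.26 to 0.570 ± 0.142 FPKM (limma adjusted p = 9.58e-04), and *Havcr1*, which encodes TIM-1, fell from 0.990 to 0.136 FPKM (limma adjusted p = 0.00303). The third that fell was *Lck*, the T cell kinase gene.

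Of 13 genes of CD40 signalling 2 rose and 3 fell. *Traf5*, an adaptor gene of CD40, rose from 10.2 ± 0.733 to 17.8 ± 0.532 FPKM, and *Birc2*, which encodes a ubiquitin ligase of the same complex, fell from 6.20 ± 1.49 to 2.06 ± 0.174 FPKM (limma adjusted p = 0.00119 and 0.00287). *Map3k14*, the kinase gene of the alternative NF-kappaB path, fell from 3.70 to 2.30 FPKM (limma adjusted p = 0.00681), and *Jak3* fell from 9.78 to 5.86 FPKM (limma adjusted p = 0.00631). *Relb* and *Nfkb2*, later steps of that path, did not pass, at log2 fold changes of -0.05 and 0.11.

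Of 7 genes that act on the surface life of CD86, CD83 or PD-L1, 2 rose and 1 fell. *March1*, listed in the deposited table under a date-like symbol and matched by its identifier ENSMUSG00000036469, encodes the ubiquitin ligase that removes CD86 and MHC class II from the surface. It stood at 2.70, 4.15 and 3.78 FPKM in WT and 2.09, 1.21 and 1.48 FPKM in KO (limma adjusted p = 0.0178). *March8*, its relative, matched in the same way, rose from 2.81 ± 0.235 to 4.39 ± 0.508 FPKM (limma adjusted p = 0.0131). *Cmtm6*, whose protein protects PD-L1 from breakdown, rose from 23.6 to 28.3 FPKM (limma adjusted p = 0.0289).

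Of 12 genes from the interferon-gamma receptor to IRF1, 1 rose and 4 fell. *Irf1*, which encodes a transcription factor known to act on *Cd274*, stood at 22.5, 19.9 and 24.2 FPKM in WT and 14.9, 7.66 and 6.88 FPKM in KO (limma adjusted p = 0.0213). *Stat2* fell from 13.3 to 5.02 FPKM and *Irf2* from 6.14 to 4.79 FPKM (limma adjusted p = 0.0200 and 0.0145). The member that rose was *Ifngr1* (named after its value was seen), from 9.43 to 11.6 FPKM. Of 11 adhesion genes 3 rose and 1 fell. The integrin chain gene *Itgb2* rose from 484 ± 65.0 to 817 ± 16.5 FPKM, *Cd48* from 24.3 to 34.3 FPKM and *Ly9* from 27.7 to 39.6 FPKM, while *Itgal* fell from 9.98 to 6.38 FPKM (limma adjusted p = 0.00633, 0.0163, 0.0276 and 0.0488).

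By Pearson's correlation of log2(FPKM + 1) over the 6 libraries, the genes most like *Cd80* among 7092 with a mean of at least 2 FPKM were *Ccl9*, *Lrg1* and *Abi1*, with coefficients from 0.995 to 0.998. Those most like *Pdcd1lg2* were *Marco*, *Sparc* and *Prg4*, with coefficients from 0.998 to 0.999. *Sparc*, a matrix protein gene, is also one of the mast cell and mesothelium markers that were lower in KO (6.51 against 2.41 FPKM). The libraries form 2 groups, and 258 and 352 genes had a coefficient above 0.95 with *Cd80* and *Pdcd1lg2*. *Marco*, a scavenger receptor gene of macrophages, stood at 73.1, 79.2 and 84.1 FPKM in WT and at 25.5, 18.8 and 18.1 FPKM in KO.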

How the data were processed

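RNA from 3 WT and 3 KO macrophage samples was sequenced. The authors deposited 1 table of FPKM values per gene and library, with the build GRCm38 (mm10) named in the submitters' processing notes. No aligner, counting tool or strand setting is named in the sources used here. Multiplying each value by its gene's length gave whole multiples of a library's smallest unit for 100% of non-zero values (tolerance 0.05 of that unit), and these were taken as reads.

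Values were analysed as log2(FPKM + 1) with limma 3.58.1 in R 4.3.3 (eBayes with trend) for the 11689 genes whose mean reached 0.5 FPKM, genotype alone, Benjamini-Hochberg adjusted p below 0.05 over all of them. This scale understates changes of low genes. Folds are ratios of mean FPKM. Ratios of 2 genes were compared by exact permutation (scipy 1.17.1). Only the main limma fit was run on simulated reads, with the same spread for every gene and no library that stood apart. That run does not test the other steps or data with libraries that stand apart.

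The 9 genes and all lists were chosen with earlier results of these data known. Of each list, called genes were named, at most 4 by smallest p, except 1 gene that is counted but not reported here. The labels do not say that replicate numbers mark pairs, and same-numbered WT and KO replicates did not deviate together (correlations of deviations -0.50, -0.19 and -0.16). Replicate numbers were therefore not used as pairs in the main fit, though these correlations cannot exclude a paired preparation. Alternatives were another pseudocount, filters, TPM, quantile normalization, a replicate block, leaving out libraries, and voom on recovered reads. Reads per gene do not separate isoforms, and intervals cover the spread of these libraries.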

Additional observations from a re-analysis of the deposited data

How the results depend on the processing

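*Pdcd1lg2* kept its direction and its call under all 14 alternatives run (limma adjusted p from 7.41e-05 to 0.0145), and *Cd80* under 13 of 14. The 14th was the replicate block (log2 fold change 0.92, limma adjusted p = 0.0556), which treats same-numbered libraries as pairs. The labels neither state nor exclude such pairs. With that replicate block 0 of the 9 genes were called higher, and over all genes 479 were higher and 604 lower (3 and 11 of the related genes). The ratios of *Cd80* to *Cd86*, *Cd274* to *Pdcd1lg2* and *Cd80* to *Cd274* rose under all 9 alternatives run for each. The groups of *Cd80*, of *Pdcd1lg2* and of each ratio did not overlap, so leaving out libraries could not change a direction. For these 2 genes another pseudocount or filter could not change it either. The replicate block gives the same difference by design, so none of these tests the direction. TPM gave 542 higher genes, 2 of the 9 genes lower and 4 related genes higher. A mean of at least 2 FPKM, under which *Icosl* was not tested, gave 876 lower genes. Quantile normalization gave 8 and no filter 9 related genes higher. Voom on recovered reads, chosen after seeing the data, gave 2 of the 9 genes lower. Leaving out both replicate 1 libraries gave 5 of the 9 genes and 36 related genes lower, and turned the log2 fold change of *Cd83* to -0.053 and of *Havcr2* to 0.11. Leaving out 1 library gave 912 to 1681 higher and 851 to 1337 lower genes, 1 to 4 of the 9 genes lower (4 without KO replicate 1: *Pdcd1lg2*, *Cd40*, *Icosl* and *Lgals9*), and 4 to 13 related genes higher and 13 to 25 lower. *Cd274* ranged from -0.33 to 0.13 when 1 library was left out, positive without WT replicate 2 (0.09), WT replicate 3 (0.06), KO replicate 2 (0.09) or KO replicate 3 (0.13). The causes were not tested. edgeR and DESeq2 on the recovered reads, planned as alternatives, were not run, and voom was run in their place. Depth limits *Icosl* most, at 60 to 147 reads per library.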
